A study of Mus musculus with 12 samples.

Results

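Glutathione is the small thiol that GPX4 uses to reduce lipid peroxides, and its supply is described here through 8 genes chosen by symbol, all of them present among the 24502 genes of the expression table. They were Slc7a11 for cystine import, Gclc, Gclm and Gss for synthesis, Gsr for recycling, and Chac1, Chac2 and Ggct for breakdown. RNA was sequenced from sorted mouse regulatory T cells (Treg, CD4 T cells that restrain immune responses) of animals aged 11 weeks. The 4 groups, each of 3 libraries, were WT cells unstimulated, WT cells stimulated, Foxp3CreGpx4fl/fl cells unstimulated and Foxp3CreGpx4fl/fl cells stimulated. Stimulated cells spent 4 h on plates coated with antibodies against CD3 and CD28 (5 µg/ml), and their medium contained β-mercaptoethanol. The labels give no culture time for unstimulated cells, so stimulation and culture cannot be told apart. In Foxp3CreGpx4fl/fl mice a Cre recombinase driven by Foxp3, a gene of the Treg lineage, deletes the floxed Gpx4. These cells are called Gpx4-deficient here and KO in the plots. The WT controls are not described as carrying Cre.

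Cystine, the oxidised dimer of cysteine, enters cells in exchange for glutamate through system xc-, whose transporting chain is SLC7A11 and whose anchoring chain is SLC3A2. Inside the cell cystine is reduced to cysteine, glutamate-cysteine ligase (catalytic subunit GCLC, modifier subunit GCLM) joins it to glutamate, and glutathione synthetase (GSS) adds glycine. Glutathione reductase (GSR) uses NADPH to return oxidised glutathione to its reduced form, while CHAC1 and CHAC2 cleave glutathione and GGCT acts on the γ-glutamyl amino acids of the same cycle. In activated T cells glutathione is known to support growth, and SLC7A11 and CHAC1 are textbook targets of the stress-responsive factor ATF4, while GCLC, GCLM and GSR are known targets of NRF2.

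The promoters of the set are shown first, as a description of their letters. RefSeq promoters on GRCm38.p6 matched 6 of the 8 genes (not Gclc or Gsr), each covering 300 bases around a transcript start. For this set 3 motifs were searched on both strands, namely the C/EBP-ATF response element TGATGNAA, the antioxidant response element core TGACNNNGC and the AP-1 site TGAGTCA, and no match of one overlapped a match of another. Each stretch below is 120 bases upstream of a start site, written on the strand of its gene, with motif matches in capitals.

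Slc7a11, chr3:50443615-50443734, minus strand: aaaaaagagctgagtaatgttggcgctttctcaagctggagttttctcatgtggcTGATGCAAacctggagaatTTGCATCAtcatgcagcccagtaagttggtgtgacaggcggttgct
Chac1, chr2:119350992-119351111, plus strand: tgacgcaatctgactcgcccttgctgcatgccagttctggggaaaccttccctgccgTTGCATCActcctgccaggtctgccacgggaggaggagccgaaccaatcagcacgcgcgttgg
Gclm, chr3:122245357-122245476, plus strand: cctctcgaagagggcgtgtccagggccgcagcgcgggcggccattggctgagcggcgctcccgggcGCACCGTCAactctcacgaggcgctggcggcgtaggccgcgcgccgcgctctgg

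The C/EBP-ATF letters stood in 2 of the 6 promoters, Slc7a11 with 2 matches (1 on each strand) and Chac1 with 1 on the opposite strand, against 3.97% of all 32851 promoters of that length. The antioxidant core stood in 2 of the 6, Gclm with 1 match and Ggct with 2, against 12.4% of all promoters. Ggct, whose stretch is not printed above, was not called in any comparison below. The AP-1 letters stood in none of the 6, against 5.2% of all. Such matches describe the letters in these windows and were not tied to binding of any factor. A link between them and the responses below was not tested.

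**Figure D1:**
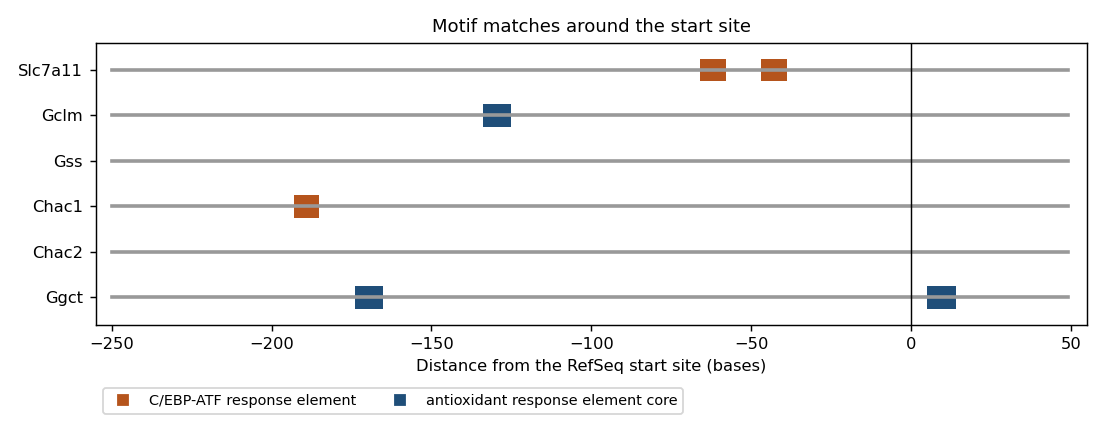
Position of motif matches in the 6 promoters found in RefSeq. The horizontal axis is distance in bases from the annotated start site, and coloured boxes mark the 2 motifs that had a match. Slc7a11 and Chac1 carry C/EBP-ATF matches, Gclm and Ggct carry antioxidant core matches, and Gss and Chac2 carry neither.

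Library totals ran from 24629230 to 31879267 counts. Gpx4 itself averaged 154 ± 16.1 CPM (the count relative to the scaled library total; SD, n = 3) in unstimulated WT, 8.20 ± 3.77 in unstimulated Gpx4-deficient, 86.5 ± 19.4 in stimulated WT and 7.02 ± 3.21 in stimulated Gpx4-deficient libraries. Markers of Treg cells (Cd3e, Cd4, Foxp3, Il2ra, Ctla4, Ikzf2) were all present, with a summed level of at least 2528 CPM in every library. The stimulated Gpx4-deficient libraries stood apart. In them 107 to 190 genes were at 0 although they averaged 5 CPM or more over the other libraries, against 9 to 69 in the remaining libraries, and mitochondrially encoded transcripts took 2.84% to 3.72% of counts against 1.18% to 1.94%. Their part in the results below was not tested. The identifiers of WT libraries form one series and those of Gpx4-deficient libraries another, so a difference between those blocks and one between genotypes cannot be told apart. Nothing says that libraries of a group came from separate animals, so p-values measure the spread between these libraries only. In bulk RNA, fewer cells expressing a gene and less RNA per cell cannot be told apart.

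Slc7a11, the cystine-importing chain of system xc- (chromosome 3, 49892526 to 50443614, minus strand), was nearly silent without stimulation and present with it. It had 0 counts in each of the 3 unstimulated WT libraries and 3, 0 and 2 counts in the unstimulated Gpx4-deficient ones. After stimulation it reached 6.71, 8.42 and 3.60 CPM in WT replicates 1 to 3 and 2.23, 1.64 and 41.6 CPM in Gpx4-deficient replicates 1 to 3. All stimulated libraries were above all unstimulated ones, and the 3 stimulated WT libraries lay inside the range of the Gpx4-deficient ones. Slc7a11 entered the test through its stimulated libraries alone, so a difference between the states was a condition of the p-values that follow. The rise in WT was at least 164-fold, against a floor of 3 counts over the 3 unstimulated libraries (adjusted p = 0.0127, edgeR quasi-likelihood test with Benjamini-Hochberg adjustment over 14827 genes). In Gpx4-deficient cells the ratio of summed counts was 227 (1217 against 5 counts, exact 95% interval 97.1 to 701 for counting error only) and the fitted log2 fold change was 7.85 (SE 1.87, adjusted p = 0.0194, edgeR).

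One library carried most of that second value. Gpx4-deficient replicate 3 held 41.6 CPM, and without it the fitted log2 fold change was 4.89 and the edgeR call was lost (adjusted p = 0.0738). The call was also lost without any 1 of the 3 unstimulated Gpx4-deficient libraries (adjusted p = 0.0536 to 0.0713, edgeR). Between the stimulated genotypes, Slc7a11 showed a log2 difference of 1.28 (95% interval -1.82 to 4.38, adjusted p = 0.701, edgeR), and without replicate 3 it was -1.69, so these libraries give no direction. In replicate 3, 190 such genes were at 0 and 3.72% of counts were mitochondrial, more than in any other library.

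Chac1, which cleaves glutathione in the cytosol (chromosome 2, 119351229 to 119354381, plus strand), had the largest response of the set in counts. Unstimulated WT replicates 1 to 3 held 0.464, 0.148 and 0.0394 CPM, and unstimulated Gpx4-deficient replicates held 0.141, 0.0384 and 0.264 CPM. Stimulated WT replicates held 101, 86.0 and 71.2 CPM, and stimulated Gpx4-deficient replicates 79.7, 38.7 and 66.9 CPM. The unstimulated and stimulated libraries were far apart in both genotypes, while the genotypes overlapped in each state.

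From summed counts, Chac1 was 395-fold higher with stimulation in WT (6464 against 17 counts, exact 95% interval 247 to 679) and 408-fold higher in Gpx4-deficient cells (5246 against 12 counts, 233 to 790). The fitted log2 fold changes were 8.60 (SE 0.79, adjusted p = 1.78e-05, edgeR) and 8.66 (SE 0.80, adjusted p = 1.90e-05, edgeR). Both calls held without any 1 library, with log2 values of 8.13 to 9.74 in WT and 8.25 to 9.34 in Gpx4-deficient cells. Chac1 entered the test through its stimulated libraries alone, so a difference between the states was a condition of these calls. The 2 responses differed by 0.06 (log2, interaction, 95% interval -1.63 to 1.76, adjusted p = 1, edgeR). Stimulated Gpx4-deficient cells averaged 61.7 ± 21.0 CPM against 86.0 ± 14.8 in WT, a log2 difference of -0.48 (95% interval -1.67 to 0.72, adjusted p = 0.718, edgeR).

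Slc7a11 and Chac1 entered the test through their stimulated libraries alone, so that their difference from the unstimulated state was a condition of being tested. Their p-values on stimulation and the fits without 1 library therefore add no support to the counts given above. Markers of other cell types differed between the states too. The summed level of 6 monocyte and macrophage markers (Lyz2, Csf1r, Cd68, Adgre1, Itgam, Fcgr1) was 118 to 245 CPM in the unstimulated and 22.0 to 72.4 CPM in the stimulated libraries. Itgam and Fcgr1 were at 0 in all 3 stimulated WT libraries but averaged only 0.313 and 0.643 CPM in unstimulated WT. In Gpx4-deficient cells Cd68 (7.97 without and 9.55 CPM with stimulation) and Adgre1 (5.67 and 6.22 CPM) were not lower on average, whereas the other markers of this list were. The summed level of 5 dendritic cell markers (Itgax, Xcr1, Flt3, Siglech, Zbtb46) was 4.95 to 20.6 CPM in unstimulated and 24.0 to 42.0 CPM in stimulated WT libraries, in the same direction as Slc7a11 and Chac1. Siglech was at 0 in all 6 of these, and Zbtb46 held 2.01, 4.45 and 3.66 against 30.4, 17.9 and 34.01 CPM. Xcr1 averaged 1.44 CPM without and 4.60 CPM with stimulation in WT. Itgax (3.78 and 0.0135 CPM) and Flt3 (3.94 and 3.16 CPM) had lower means with stimulation, all overlapping between the states. The higher sum in WT thus rested mostly on Zbtb46. In Gpx4-deficient libraries the dendritic cell sum was 6.78 to 23.3 CPM without and 6.88 to 62.7 CPM with stimulation, which overlap. The summed markers of CD8 and NK cells and of stromal and epithelial cells were lower in the stimulated libraries of both genotypes, and those of B cells and erythroid cells in WT, without overlap. The stromal and epithelial sum was mostly Pecam1, which averaged 161 and 78.9 CPM in WT and 179 and 50.6 CPM in Gpx4-deficient cells without and with stimulation. Epcam, of the same list, averaged 21.6 and 19.2 CPM in WT and 13.8 and 19.5 CPM in Gpx4-deficient cells, with overlap in both. The part of these markers in the results was not tested.

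Chac2, a paralog with a steadier and slower glutathione-cleaving activity (chromosome 11, 30976707 to 30986350, minus strand), did not follow Chac1. Its level was 1.35, 1.97 and 2.36 CPM in unstimulated WT and 2.25, 4.34 and 3.43 CPM in unstimulated Gpx4-deficient replicates 1 to 3. With stimulation it was 8.13, 5.76 and 0.283 CPM in WT and 0.215, 10.1 and 0.0754 CPM in Gpx4-deficient replicates. One WT library and 2 Gpx4-deficient libraries were thus at 7, 6 and 2 counts, below every unstimulated library, while the other 3 were above all of them. No comparison was called for Chac2. Its stimulation response was a log2 difference of 1.32 in WT (95% interval -2.18 to 4.81, adjusted p = 0.739, edgeR) and 0.05 in Gpx4-deficient cells (-3.38 to 3.49, adjusted p = 0.991, edgeR). Without stimulated Gpx4-deficient replicate 2 the second value was -4.46 (adjusted p = 0.0902, edgeR).

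Ggct, the γ-glutamylcyclotransferase that releases 5-oxoproline (chromosome 6, 54982580 to 54992950, minus strand), averaged between 15.5 and 17.7 CPM in all 4 groups. It was 18.04, 18.03 and 11.9 CPM in unstimulated WT, 19.5, 11.8 and 15.96 CPM in unstimulated Gpx4-deficient, 7.56, 14.7 and 24.3 CPM in stimulated WT and 27.0, 18.8 and 7.50 CPM in stimulated Gpx4-deficient replicates 1 to 3. The groups overlapped in every comparison, and the stimulated libraries were the more scattered. Fitted log2 differences lay between -0.04 and 0.21 over the 5 comparisons, and the genotype intervals ran from -1.28 to 1.24 without and from -1.07 to 1.45 with stimulation.

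**Figure D2:**
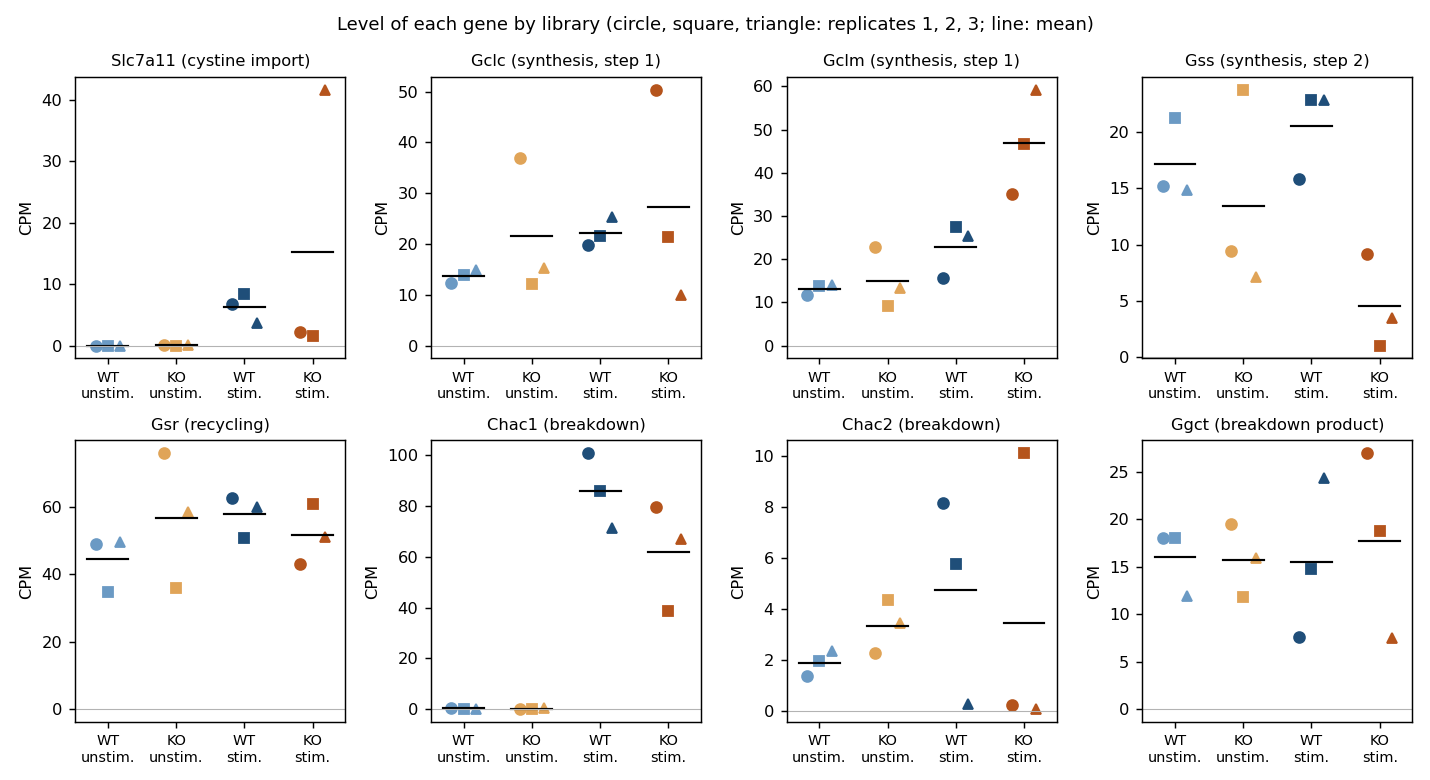
Level of the 8 genes in each library, in CPM on linear axes that differ between panels. Circles, squares and triangles are replicates 1, 2 and 3, and lines are group means. Slc7a11 and Chac1 are near 0 in all 6 unstimulated libraries, stimulated Gpx4-deficient replicate 3 holds 41.6 CPM of Slc7a11, and Gclm is highest and Gss lowest in the stimulated Gpx4-deficient group.

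Of the synthesis genes, Gclm rose with stimulation in Gpx4-deficient cells and did not pass the test in WT, and Gclc and Gss passed in neither. Gclm, the modifier subunit that makes the ligase more efficient (chromosome 3, 122245557 to 122270732, plus strand), held 11.7, 13.9 and 14.0 CPM in unstimulated WT and 22.7, 9.07 and 13.3 CPM in unstimulated Gpx4-deficient replicates 1 to 3. With stimulation it held 15.5, 27.5 and 25.4 CPM in WT and 35.0, 46.7 and 59.2 CPM in Gpx4-deficient replicates. Every stimulated library lay above every unstimulated one of its genotype, and the 3 stimulated Gpx4-deficient libraries lay above all other libraries. Gclm rose with stimulation in Gpx4-deficient cells from 15.03 ± 7.0003 to 47.0 ± 12.1 CPM (SD, n = 3; log2 fold change 1.64, SE 0.42, adjusted p = 0.0210, edgeR). That call was lost without unstimulated Gpx4-deficient replicate 2 or 3 (adjusted p = 0.0801 and 0.0807, edgeR). It was also lost in the fit of only the 6 Gpx4-deficient libraries (adjusted p = 0.0914, edgeR).

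In WT the Gclm means were 13.2 ± 1.28 and 22.8 ± 6.37 CPM (log2 difference 0.79, 95% interval -0.12 to 1.69, adjusted p = 0.291, edgeR). The fit of only the 6 WT libraries gave an adjusted p of 0.110 (edgeR), so in such fits Gclm passed in neither genotype. Between the stimulated genotypes the log2 difference was 1.04 (95% interval 0.14 to 1.95, unadjusted p = 0.0274, adjusted p = 0.215, edgeR), which did not pass. The interaction was 0.86 (95% interval -0.41 to 2.13, adjusted p = 0.745, edgeR), so the responses of the genotypes were not shown to differ. Gclm exons share 296 bases with Gm17494 on the other strand and 244 with the pseudogene Gm6061, whose group means were at most 9.20 and 0.655 CPM. Gm17494 held 3.30, 6.20 and 18.1 CPM in stimulated Gpx4-deficient replicates 1 to 3, in the same order as Gclm. The part of these 2 genes in the Gclm values was not tested.

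Gclc, the catalytic subunit of the same ligase (chromosome 9, 77754535 to 77794485, plus strand), held 12.4, 13.8 and 14.9 CPM in unstimulated WT and 19.7, 21.6 and 25.3 CPM in stimulated WT replicates 1 to 3. These ranges did not overlap, yet the log2 difference of 0.70 (95% interval -0.58 to 1.97, adjusted p = 0.574, edgeR) did not pass. Nor did it pass in the fit of only the 6 WT libraries (adjusted p = 0.0979, edgeR). In Gpx4-deficient replicates it held 37.0, 12.1 and 15.4 CPM without and 50.3, 21.4 and 9.92 CPM with stimulation. The 3 stimulated Gpx4-deficient libraries spanned the whole range of the WT ones, and the library with the most Gclc had the least Gclm and the one with the least Gclc the most Gclm. The response there was 0.34 (log2, 95% interval -0.93 to 1.61, adjusted p = 0.765, edgeR) and became -0.43 without stimulated replicate 1. The genotype difference was 0.65 (95% interval -0.63 to 1.93) without and 0.30 (95% interval -0.98 to 1.57) with stimulation.

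Gss, which completes glutathione by adding glycine (chromosome 2, 155563181 to 155592810, minus strand), was lowest in stimulated Gpx4-deficient libraries. Its level was 15.2, 21.3 and 14.8 CPM in unstimulated WT, 9.42, 23.7 and 7.17 CPM in unstimulated Gpx4-deficient, 15.8, 22.8 and 22.8 CPM in stimulated WT and 9.16, 1.05 and 3.51 CPM in stimulated Gpx4-deficient replicates 1 to 3. The stimulated genotypes did not overlap. Their means were 20.5 ± 4.03 and 4.57 ± 4.16 CPM, a log2 difference of -2.16 (95% interval -3.82 to -0.50, unadjusted p = 0.0151, adjusted p = 0.167, edgeR). The difference did not pass by edgeR and did by DESeq2 (log2 -2.14, adjusted p = 0.0326), and by edgeR without stimulated Gpx4-deficient replicate 1 (-3.14, adjusted p = 0.0475). Over all alternatives for this value the adjusted p ran from 0.0326 to 0.409.

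In Gpx4-deficient cells the Gss response to stimulation was -1.55 (log2, 95% interval -3.19 to 0.08, adjusted p = 0.187, edgeR) and -2.56 without stimulated replicate 1 (adjusted p = 0.0422, edgeR). In WT it was 0.26 (95% interval -1.33 to 1.85, adjusted p = 0.910, edgeR). The interaction of -1.81 (95% interval -4.08 to 0.46, adjusted p = 0.670, edgeR) did not pass. Gss shares 395 exon bases with Acss2, 385 with Gssos2 and 322 with Gssos1, all on the other strand. The libraries were stranded but the strand setting of the counting is not given in the sources used here. Acss2 averaged 67.8 CPM in unstimulated and 18.6 CPM in stimulated WT, and 75.3 and 11.7 CPM in Gpx4-deficient cells, with no overlap between the states in either genotype (adjusted p = 0.261 and 0.0818, edgeR). Its part in the Gss values was not tested. The 2 antisense genes had a mean of 0 in every group.

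Gsr, the NADPH-dependent reductase that recycles glutathione (chromosome 8, 33652523 to 33698163, plus strand), was not called in any comparison. It held 48.8, 34.7 and 49.6 CPM in unstimulated WT, 75.8, 35.9 and 58.5 CPM in unstimulated Gpx4-deficient, 62.5, 50.8 and 59.8 CPM in stimulated WT and 42.9, 60.9 and 51.1 CPM in stimulated Gpx4-deficient replicates 1 to 3. In WT the stimulated libraries lay above the unstimulated ones, with means of 57.7 ± 6.13 and 44.4 ± 8.39 CPM, and the log2 difference of 0.38 did not pass (95% interval -0.25 to 1.01, adjusted p = 0.519, edgeR). The genotype intervals for Gsr were the narrowest of the set, from -0.28 to 0.99 without and from -0.79 to 0.47 (log2) with stimulation.

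Counted over the set, 2 of 8 genes were called in WT on stimulation, both higher (Slc7a11 and Chac1), where 11.5% of all tested genes were called in either direction. In Gpx4-deficient cells 3 of 8 were called, all higher (Slc7a11, Chac1 and Gclm), where 15.3% of tested genes were. That count was 1 (Chac1) in the fit of only the 6 Gpx4-deficient libraries, and 1 without unstimulated Gpx4-deficient replicate 2 or 3. Median log2 fold changes of the 8 were 0.74 and 0.26, beside -0.03 and -0.02 over all tested genes. Libraries of the 2 states did not overlap for 5 of 8 genes in WT (Slc7a11, Chac1, Gclm, Gclc and Gsr, all higher), where 42% of tested genes showed this, and for 3 of 8 in Gpx4-deficient cells, where 29.8% did. With 8 genes these shares are coarse. Slc7a11 and Chac1 are among the genes counted, and they entered the test through their stimulated libraries alone. A difference between their states was a condition of being tested, so these counts give no support for a response of the set.

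Between genotypes the edgeR test called 0 of the 8 without stimulation (0 at an unadjusted p under 0.05, 0 by DESeq2), where 0.0674% of all tested genes were called. It called 0 of the 8 with stimulation (2 at an unadjusted p under 0.05, Gclm higher and Gss lower, and 1 by DESeq2, Gss), where 2.27% were called. Of all 14827 tested genes, 2715 were at an unadjusted p under 0.05 with stimulation (edgeR) and DESeq2 called 1532. The 2 of 8 and the 1 of 8 are thus near the shares over all genes. The interaction called 0 of the 8 (0 at an unadjusted p under 0.05, 0 by DESeq2), where 0.202% were called. Libraries of the genotypes did not overlap for 0 of 8 without stimulation (18.3% of all tested genes) and for 2 of 8 with it (20.1% of all tested genes). The median of the 8 was 0.27 without and 0.02 with stimulation (log2), and 5 of 8 were positive without and 4 of 8 with it. The intervals above show how wide a genotype effect these libraries would leave unseen: for Chac2 they reach -2.65 and 4.28 without stimulation, and for Gclc -0.63 and 1.93.

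**Figure D3:**
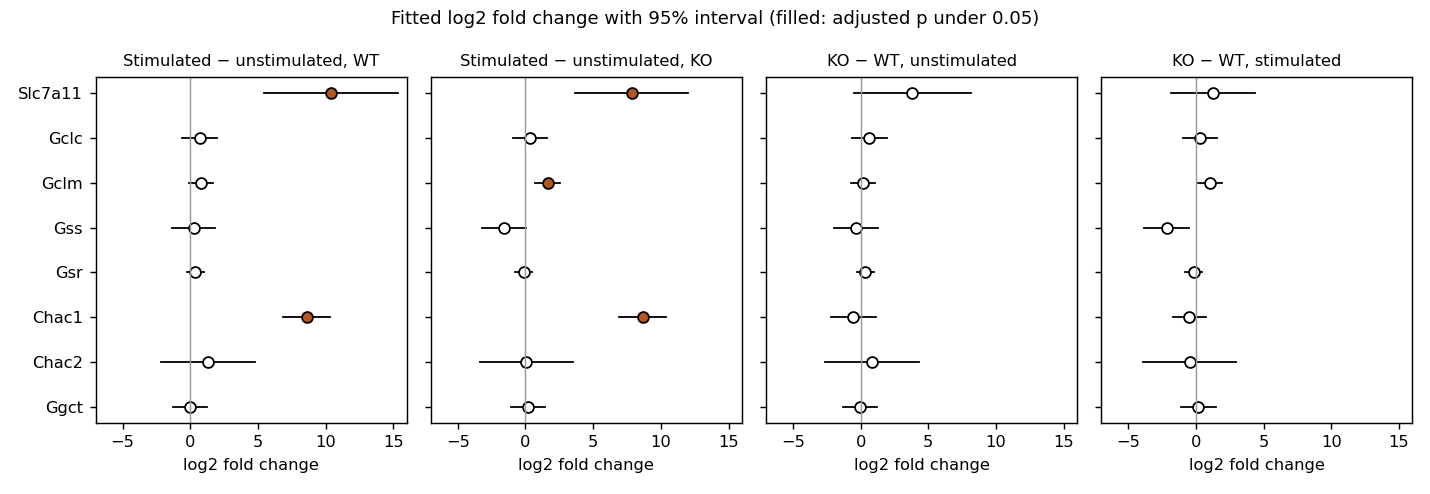
Fitted log2 fold change of the 8 genes in 4 comparisons, with 95% intervals as lines and filled points where the adjusted p was under 0.05. Filled points are Slc7a11 and Chac1 in WT and Slc7a11, Chac1 and Gclm in Gpx4-deficient cells on stimulation, and none between genotypes. Folds of Slc7a11 against unstimulated WT rest on a group at 0 and depend on the prior count.

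Levels can be set beside each other only per length, so CPM were divided by the merged exon length of each gene in kilobases. In unstimulated WT the order was Gsr at 16.1 ± 3.05, Gclc 3.64 ± 0.333, Gss 2.89 ± 0.609, Gclm 2.10 ± 0.203, Ggct 2.06 ± 0.458, Chac2 1.44 ± 0.386, Chac1 0.133 ± 0.135 and Slc7a11 0 CPM per kb. Gsr stood clear of the rest and Chac1 and Slc7a11 at the bottom, whereas Gclm and Ggct differed by less than their spread. In stimulated WT Chac1 moved from the last but one place to the first, at 52.5 ± 9.03 CPM per kb, ahead of Gsr at 21.0 ± 2.22. Slc7a11 remained the lowest there, at 0.448 ± 0.176 CPM per kb. In stimulated Gpx4-deficient cells Chac1 (37.7 ± 12.8) and Gsr (18.8 ± 3.26) led again. Gclm and Gclc followed at 7.46 ± 1.92 and 7.23 ± 5.53, and Gss (0.773 ± 0.703) and Slc7a11 (1.09 ± 1.64) had the lowest means and were not separated. Slc7a11 held 0.160, 0.117 and 2.99 and Gss 1.55, 0.177 and 0.593 CPM per kb in replicates 1 to 3, so Slc7a11 was the lower of the pair in all but replicate 3.

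The spread between libraries also differed among the 8 genes and the 4 groups. The SD as a percentage of the mean in stimulated Gpx4-deficient cells was 166% for Chac2, 151% for Slc7a11, 90.9% for Gss and 76.4% for Gclc, against a median of 54.9% over all tested genes. It was 17.4% for Gsr, 25.7% for Gclm and 33.99% for Chac1 in the same libraries. In unstimulated WT it was 9.15% for Gclc and 9.67% for Gclm, against a median of 23.2%. Of the 8 genes, 5 were above the all-gene median in stimulated Gpx4-deficient cells, 6 in unstimulated Gpx4-deficient cells and 3 in stimulated WT. In unstimulated WT 2 of the 7 with a value were above it. Among the 6162 tested genes whose mean level lay within the range of the 8, the median in stimulated Gpx4-deficient cells was 64.2%, and 4 of the 8 were above that, Ggct (55.1%) no longer among them.

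**Figure D4:**
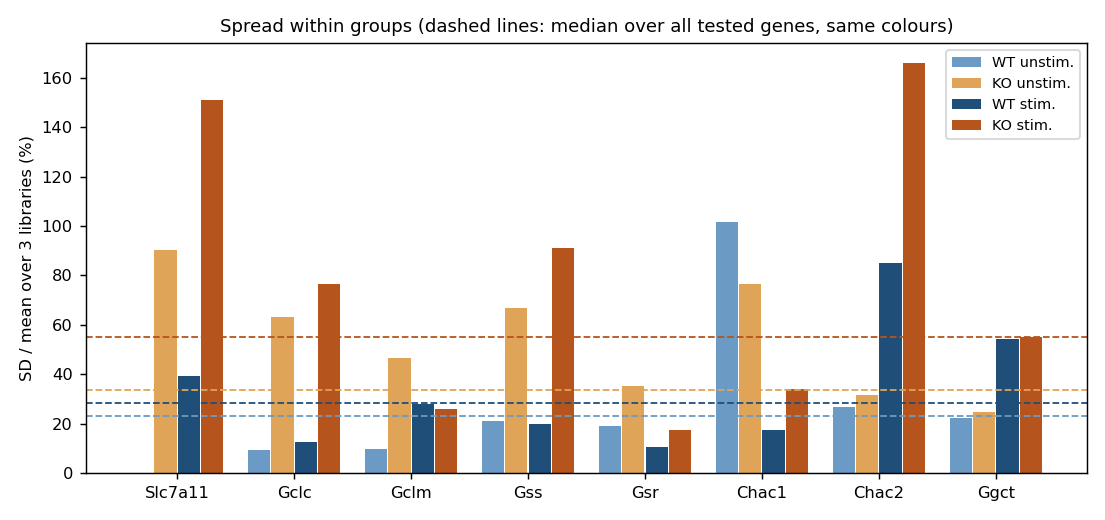
SD over the 3 libraries of a group as a percentage of the mean, for each gene (bars) and as the median over all tested genes (dashed lines in the colour of the group). In stimulated Gpx4-deficient cells Chac2 (166%) and Slc7a11 (151%) exceed the median of 54.9% and Gsr (17.4%) and Gclm (25.7%) lie below it. Unstimulated WT has no bar for Slc7a11, which was at 0.

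Of a wider list of glutathione genes, 100 were in the table and 87 were tested. On stimulation 28 of the 87 were called in WT (22 higher, 6 lower) and 37 in Gpx4-deficient cells (23 higher, 14 lower), with medians of 0.01 and 0.06 (log2). Over all 14827 tested genes, 11.5% were called in WT (907 higher, 802 lower) and 15.3% in Gpx4-deficient cells (1105 higher, 1161 lower), which is the background for the counts by role that follow. Of 11 tested cystine and cysteine supply genes, 7 rose in WT and 6 in Gpx4-deficient cells, and 0 fell in either. Of 6 glutamate and glycine supply genes 5 and 6 rose. Slc3a2, the partner chain of Slc7a11 in system xc-, was already at 192, 185 and 201 CPM in unstimulated WT and reached 896, 901 and 946 CPM with stimulation. In Gpx4-deficient replicates 1 to 3 it went from 215, 196 and 202 to 939, 770 and 880 CPM. Slc3a2 rose in both (log2 2.25, SE 0.10, adjusted p = 5.54e-08, and 2.08, SE 0.10, adjusted p = 9.80e-08, edgeR), and its libraries overlapped between genotypes in the stimulated state.

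SLC3A2 also pairs with the large neutral amino acid transporter gene Slc7a5, which rose from 32.1 ± 1.03 to 419 ± 22.7 CPM in WT and from 33.4 ± 6.67 to 299 ± 23.9 CPM in Gpx4-deficient cells (log2 3.71 and 3.16, adjusted p = 5.67e-08 and 1.53e-07, edgeR). Shmt2, a mitochondrial source of glycine, rose by 2.65 and 2.42 (log2, adjusted p = 7.19e-08 and 1.53e-07, edgeR). Mthfd2 of the folate cycle rose by 2.83 and 2.98 (adjusted p = 1.55e-07 and 1.33e-07, edgeR), and Mat2a, which makes S-adenosylmethionine, by 1.88 and 1.54 (adjusted p = 4.49e-07 and 2.08e-06, edgeR). Slc1a5, a glutamine transporter, rose by 1.25 in WT and by 0.67 in Gpx4-deficient cells (adjusted p = 4.72e-06 and 0.00067, edgeR).

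Of 16 tested glutathione S-transferases, which join glutathione to other molecules, 0 were called higher, while 3 were called lower in WT and 5 in Gpx4-deficient cells, and 3 and 6 of the 16 had positive values. Gstp1 fell from 234 ± 23.4 to 80.8 ± 2.70 CPM in WT and from 217 ± 16.4 to 71.9 ± 11.5 CPM in Gpx4-deficient cells (log2 -1.53 and -1.60, adjusted p = 3.11e-05 and 2.36e-05, edgeR). Gstp genes are close copies, so reads may be shared among them. Of the 2 tested glutathione peroxidases other than Gpx4, Gpx1 fell in each genotype (log2 -0.88 and -1.15, adjusted p = 0.00314 and 0.000515, edgeR). The other was called in neither, with a negative value in WT and a positive one in Gpx4-deficient cells. Of 11 NADPH supply genes 1 rose and 1 fell in WT, and 1 rose and 3 fell in Gpx4-deficient cells.

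Of 18 tested regulators of the NRF2 and ATF4 arms, 7 rose in WT and 6 in Gpx4-deficient cells and 0 fell. Atf4, chosen after its values were seen, held 108, 105 and 116 CPM in unstimulated and 285, 259 and 296 CPM in stimulated WT replicates 1 to 3, and rose by 1.35 (log2, SE 0.15, adjusted p = 7.71e-05, edgeR). In Gpx4-deficient replicates it went from 120, 156 and 135 to 205, 183 and 246 CPM and rose by 0.62 (SE 0.15, adjusted p = 0.0134, edgeR). The difference of these responses, -0.73 (log2), did not pass (interaction adjusted p = 0.313, edgeR). Nfe2l2, which encodes NRF2 and was also chosen after its values were seen, was not called on stimulation in WT (0.88, adjusted p = 0.136, edgeR) or in Gpx4-deficient cells (0.51, adjusted p = 0.349, edgeR).

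**Figure D5:**
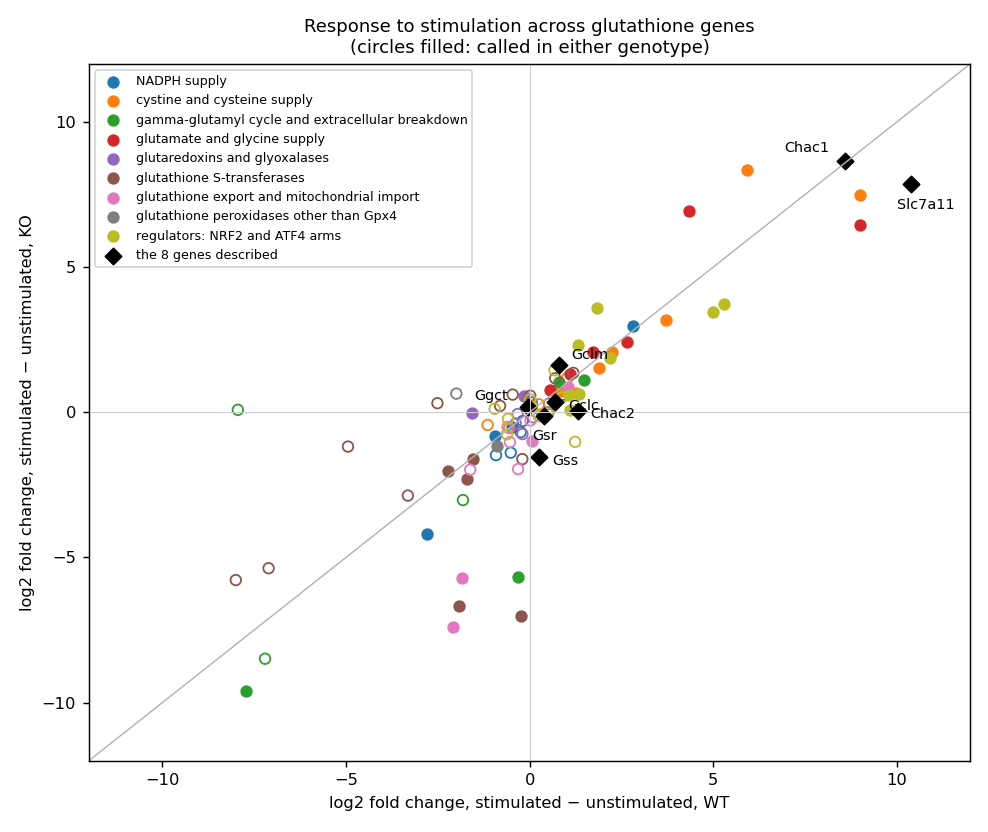
Fitted log2 fold change on stimulation in WT (horizontal) and in Gpx4-deficient cells (vertical) for the 87 tested genes of the wider list, coloured by role, and for the 8 genes described (diamonds). Circles are filled where the gene was called in either genotype, and the grey diagonal marks equal responses. Chac1 and Slc7a11 lie at the upper right, and glutathione S-transferases lie mostly at or below 0. Values of large size rest on a group near 0 counts.

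Between genotypes, 0 of the 87 were called without stimulation by edgeR (10 at an unadjusted p under 0.05, 3 by DESeq2), and 3 were with it. Over all 14827 tested genes, 0.0674% were called without and 2.27% with stimulation by edgeR, so 3 of 87 is near that share. Without stimulation, 860 of all tested genes were at an unadjusted p under 0.05 (edgeR), and DESeq2 called 183. Glrx, a glutaredoxin that removes glutathione from protein thiols, held 36.5, 37.4 and 53.4 CPM in stimulated WT and 123, 83.0 and 113 CPM in stimulated Gpx4-deficient replicates 1 to 3. It was higher by 1.32 (log2, SE 0.22, adjusted p = 0.0103, edgeR), and the call was lost without stimulated WT replicate 1 (adjusted p = 0.0513, edgeR). Glrx itself fell on stimulation in WT (log2 -1.57, adjusted p = 0.000464, edgeR), with a value of -0.02 in Gpx4-deficient cells (adjusted p = 0.970), and the interaction of 1.55 did not pass (adjusted p = 0.0751, edgeR).

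Shmt2 was lower in stimulated Gpx4-deficient cells, at 823, 765 and 679 CPM against 1238, 1168 and 1134 CPM in WT (log2 -0.64, SE 0.11, adjusted p = 0.0149, edgeR). Slc25a39, a mitochondrial glutathione importer, held 79.8, 44.1 and 74.0 CPM against 154, 129 and 154 CPM (log2 -1.14, SE 0.22, adjusted p = 0.0235, edgeR). The stimulated genotypes did not overlap for either gene. Both calls were lost without any 1 of the stimulated WT replicates (adjusted p = 0.0667 to 0.0904 for Shmt2 and 0.0621 to 0.0905 for Slc25a39, edgeR). The count of 3 in this comparison ran from 0 (without stimulated WT replicate 1) to 8 (without stimulated Gpx4-deficient replicate 2), and was 14 by DESeq2. Over all tested genes the same settings called 117 of 15903, 625 of 15840 and 1532 of 14827, so the count of the list moved with that of all genes. In the fit of only the 6 stimulated libraries the count of the list was also 0, where 22 of 12472 genes were called. Adjusted p-values there were 0.165 for Glrx, 0.110 for Shmt2 and 0.165 for Slc25a39 (edgeR).

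The genes with the most similar pattern were found by Pearson r of log2 CPM over the 12 libraries, which share the 4 groups. Such an r mixes differences between groups with the spread between single libraries. Chac2 and Slc30a7, for example, were both highest in stimulated Gpx4-deficient replicate 2, at 10.1 and 126 CPM. For Slc7a11 they were Ezh2 (r = 0.980), Aplp2 (0.977) and Irgm2 (0.973), and all 3 were highest in stimulated Gpx4-deficient replicate 3, as Slc7a11 was. Ezh2, a histone methyltransferase gene, held 205, 190 and 337 CPM in those replicates. For Chac1 they were Tars (0.994), a threonyl-tRNA synthetase gene, Crem (0.992) and Egr2 (0.991). For Gclm they were Kpnb1 (0.966), Cox5a (0.946) and Prrc2c (0.944), and for Gss Nufip1 (0.927), Lactb (0.925) and Trmt10b (0.914). Nufip1 held 29.2, 2.28 and 5.85 CPM in stimulated Gpx4-deficient replicates, with replicate 2 the lowest, as for Gss. The highest r was 0.911 for Gclc (Hspbap1), 0.856 for Gsr (Mbd1), 0.922 for Chac2 (Slc30a7) and 0.870 for Ggct (Flt3).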

How the data were processed

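Stranded mRNA libraries (TruSeq) were made from WT and Foxp3CreGpx4fl/fl Treg cells, per the labels' protocols. The authors deposited gene-level expected counts (RSEM, by the table's name), 1 column for each of 12 libraries, each matched to its sample by description. Per the submitters' processing notes the genome was GRCm38; no aligner, annotation or version is given in those sources. Of the values in a library, 14.8% to 18.1% were not whole.

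Expected counts were rounded and compared with edgeR 4.0.16 in R 4.3.3 (TMM, filterByExpr, robust quasi-likelihood F test), with all 12 libraries in one fit of 4 group means (8 residual degrees of freedom). The filter left 14827 genes. The test was also run on simulated data with the same dispersion (spread beyond counting error) for every gene and group. That dispersion was below the common dispersions of the 4 groups, which ran from 0.337 to 1.43. The simulation therefore does not show how the test behaves on these libraries. Genes were called at a Benjamini-Hochberg adjusted p under 0.05. CPM use TMM-scaled totals, SE derives from F, and intervals use the t quantile of the fit. Floors and exact 95% intervals cover counting error only. Gene positions and exon lengths come from GENCODE M21 (GRCm38).

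The genes and lists were chosen with earlier results of these data known. Named from the wider list were genes called between genotypes or in the interaction, and for each stimulation comparison the 6 called with the smallest p. Gpx1, Atf4 and Nfe2l2 were named outside this rule. For each member the 3 most similar genes with a mean log2 CPM (prior count 2) of at least 1 were named. Alternatives were DESeq2 1.42.0, its size factors, no filter, a replicate block, the 6 libraries compared and leaving out each library.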

Additional observations from a re-analysis of the deposited data

How the results depend on the processing

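Settings that moved counts are given here in the order unstimulated genotypes, stimulated genotypes, WT stimulation, Gpx4-deficient stimulation and interaction, and the causes were not tested. DESeq2 called 183, 1532, 2639, 3586 and 385 genes, and 1 of the 8 (Gss) between stimulated genotypes. The fit of only the 6 libraries compared called 22 genes between stimulated genotypes, 3499 in WT and 1022 in Gpx4-deficient cells on stimulation, and 1 of the 8 in the last, where Slc7a11 (adjusted p = 0.0698, edgeR) and Gclm (0.0914) were lost. Its filter left Slc7a11 and Chac1 untested between unstimulated genotypes. Leaving out 1 library gave 3 to 14, 117 to 658, 1150 to 1248, 1649 to 2521 and 2 to 167 genes, and 0 to 0, 0 to 1, 2 to 2, 1 to 4 and 0 to 0 of the 8.

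Leaving out 1 library also turned the sign of uncalled log2 differences. Between unstimulated genotypes these ran from -0.22 to 0.47 for Gclm, -1.17 to 0.63 for Chac1 and -0.18 to 0.18 for Ggct. Between stimulated genotypes they ran from -1.69 to 1.83 for Slc7a11, -0.45 to 0.69 for Gclc, -0.26 to 0.0092 for Gsr, -4.92 to 0.24 for Chac2 and -0.19 to 0.72 for Ggct. On stimulation they ran from -0.51 to 0.31 for Ggct in WT, and in Gpx4-deficient cells from -0.43 to 1.02 for Gclc, -0.35 to 0.16 for Gsr, -4.46 to 0.65 for Chac2 and -0.23 to 0.54 for Ggct. In the interaction they ran from -1.12 to 0.32 for Gclc, -1.06 to 0.74 for Chac1 and -0.20 to 0.71 for Ggct.

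Replicate numbers did not pair the libraries: correlations of deviations between same-numbered libraries lay between -0.0237 and 0.0297. With the replicate number as a block, 3 genes were called between unstimulated and 171 between stimulated genotypes and 5 in the interaction, and 1 of the 8 on stimulation in Gpx4-deficient cells, with Slc7a11 (adjusted p = 0.0598, edgeR) and Gclm (0.0513) lost. The block gave log2 values of -0.11 for Slc7a11 between stimulated genotypes, 0.015 for Ggct on stimulation in WT, -1.32 for Chac2 on stimulation in Gpx4-deficient cells and -0.092 for Chac1 in the interaction.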
